A study of Mus musculus with 4 samples.

Results

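The 10 genes of the AP-1 and immediate early response, *Fos*, *Fosb*, *Fosl1*, *Fosl2*, *Jun*, *Junb*, *Jund*, *Atf3*, *Egr1* and *Ier2*, were followed in medullary thymic epithelial cells (mTECs) with and without a thymic epithelial deletion of *Sirt6*, a NAD-dependent deacetylase. The members were chosen by gene symbol, and all 10 were among the 23337 symbols of the count table. RNA-seq was performed on mTECs sorted from the thymus of C57BL/6 mice at 4 weeks of age, with 2 wild-type libraries (WT 1 and WT 2) and 2 libraries labelled Sirt6-/- (cKO 1 and cKO 2, for conditional knockout). Per the methods of the study, the cKO mice carried *Foxn1*-Cre, which acts in thymic epithelium, on a *Sirt6* loxp/loxp background, and the WT mice were Cre-negative littermates or age-matched animals. The methods call the samples of a group independent, but the sources used here do not state how many mice made up a library, and the p-values below measure the spread between these samples. The cells of all 4 libraries were released by collagenase and dispase digestion and sorted as CD45-EpCAM+UEA-1+Ly51- cells before RNA extraction.

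AP-1 is a transcription factor dimer. Fos proteins cannot pair with each other and bind DNA as dimers with a Jun protein, whereas Jun proteins also pair among themselves, and ATF3 is a related basic leucine zipper (bZIP) protein that can join them. Most of these genes are immediate early genes, transcribed within minutes of a stimulus through MAP kinases and serum response factor without new protein synthesis, and their mRNAs decay fast. They are also known to be induced while tissues are digested into single cells. Since all the mTECs were digested and sorted, transcription in the intact thymus and transcription during cell isolation cannot be told apart in these levels.

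*Sirt6* itself had 622 counts in WT 1, 755 in WT 2, 882 in cKO 1 and 835 in cKO 2. Its log2 fold change was 0.37 with a standard error (SE) of 0.32 (edgeR quasi-likelihood test, adjusted p = 0.80). The summed counts of the targeted gene were thus not lower in the cKO-labelled libraries. They do not separate the deleted exons from the rest of the transcript. The study also assayed *Sirt6* mRNA in sorted mTECs by quantitative PCR and SIRT6 protein in cultured thymic epithelial cells, and neither assay is analysed here. Each direction below rests on the labels. Counts summed to between 61102704 and 65907745 per library. Of 11 mTEC marker genes, all were detected and 3 (*Epcam*, *Aire* and *Cd80*) were higher in the cKO-labelled libraries at an unadjusted p of 0.05. Markers of other cells were present as well, and of 7 myeloid markers 3 (*Lyz2*, *Emr1* and *Cd68*) were lower at that p. Over the 18547 genes tested, 5.27% were higher and 3.32% lower at that p. By sign of the log2 fold change, 9 mTEC markers lay above 0 and 2 below, and 1 myeloid marker lay above 0 and 6 below.

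In the cKO-labelled libraries, *Fosb*, *Atf3*, *Egr1* and *Jun* were higher than in WT by 2.30-fold, 1.58-fold, 1.40-fold and 1.30-fold, each passing an unadjusted p of 0.05. *Fos*, *Junb* and *Ier2*, which were as abundant as *Jun* and *Egr1* or more so in WT, differed by less than 1.08-fold between the group means. Of the 10 members 4 were higher and 0 were lower at the unadjusted p, and the background over the 18547 genes tested was 5.27% higher and 3.32% lower. None of the members (0 of 10) passed an adjusted p of 0.05 with either edgeR or DESeq2, where 0.00539% of all genes passed in edgeR and 1.03% were higher in DESeq2. The count at the unadjusted p rested on WT 1: without that library 0 members were higher (5.71% of all genes), and without cKO 2 the count was 1 (3.96% of all genes). The count was 3 without cKO 1 (2.16%) and 4 without WT 2 (5.19%). The median log2 fold change of the members was 0.29, against -0.0047 over all genes tested, and it was 0.14 without WT 1.

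The members spanned a wide range of levels. By TPM, the transcript abundance scaled to gene length and to a fixed library sum, 5 of the 10 members (*Fos*, *Jun*, *Junb*, *Egr1* and *Ier2*) were among the 100 highest genes in every library. Together the 10 members held 1.08% of all TPM in WT 1, 1.25% in WT 2, 1.30% in cKO 1 and 1.42% in cKO 2. The abundant genes were called more often in general: among 1935 genes with a mean TPM of 100 or more, 9.15% were higher at the unadjusted p, beside 4 of the 7 members at that level.

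**Figure D1:**
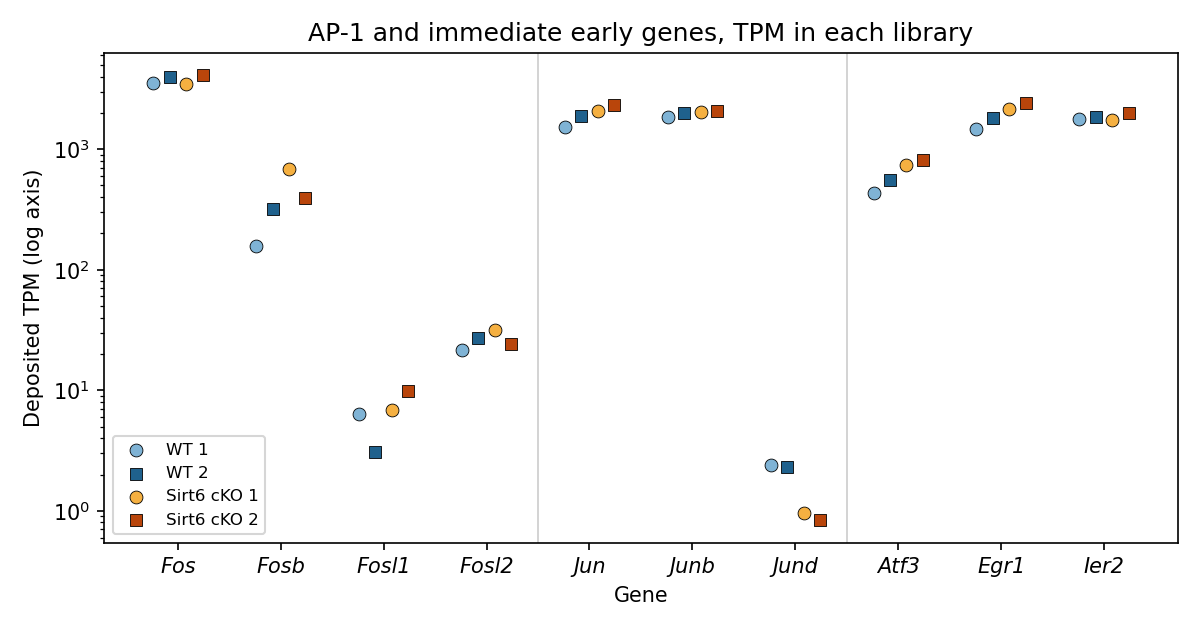
Deposited TPM (log axis) of each of the 10 genes in the 2 WT and 2 cKO-labelled libraries, 1 point per library, with lines between the Fos family, the Jun family and the other genes. *Fos* lies above 3466 in every library and *Jund* at 2.38 or below, and both cKO points lie above both WT points for *Fosb*, *Fosl1*, *Jun*, *Junb*, *Atf3* and *Egr1*.

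*Fos* (chr12:85473890-85477273, plus strand, GRCm38) encodes c-Fos, the founding Fos protein. It stood at 3575 TPM in WT 1, 4010 in WT 2, 3466 in cKO 1 and 4108 in cKO 2, so the lowest and the highest library both carried the cKO label. Its log2 fold change was 0.0076 (SE 0.14) and took the other sign under the other scalings (-0.071 with upper quartile, -0.081 with library size alone), and the groups overlapped. In every library it ranked between 12 and 18 among all genes by TPM.

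*Fosb* (chr7:19302696-19310051, minus strand) encodes FosB, a close relative of c-Fos whose short splice form is long-lived. *Fosb* stood at 156 TPM in WT 1, 319 in WT 2, 685 in cKO 1 and 397 in cKO 2. The groups did not overlap, but WT 2 was 2.04-fold above WT 1 and cKO 1 was 1.72-fold above cKO 2, the widest replicate spread among the 7 abundant members. CPM stands here for counts scaled to the library total and to edgeR's TMM factor. By CPM *Fosb* averaged 406 ± 189 in WT and 935 ± 355 in the cKO-labelled libraries (SD, n = 2). In edgeR the log2 difference was 1.20 (SE 0.41), with an unadjusted p of 0.030 and an adjusted p of 0.55. The log2 fold change was 0.77 without WT 1, 0.76 without cKO 1 and 1.78 without WT 2.

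To show how the promoters of *Fosb* and its relative *Fos* read, the bases just before their starts are given beside those of *Atf3* and *Jun*, the other bZIP genes that were higher. RefSeq's promoter table on GRCm38.p6 held 7 of the 10 members. Each sequence covers the 100 bases before the transcription start, read 5′ to 3′ on the gene's strand, and capitals mark matches on either strand to TGACG (the first part of the cAMP response element), to GCGNGGGCG (the site of EGR factors) or to TATAAA, the motif bound by the general factor TBP.
Fos, chr12:85473790-85473889 (+): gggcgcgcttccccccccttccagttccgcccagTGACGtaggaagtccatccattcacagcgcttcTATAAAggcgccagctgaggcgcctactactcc
Fosb, chr7:19310046-19310145 (-): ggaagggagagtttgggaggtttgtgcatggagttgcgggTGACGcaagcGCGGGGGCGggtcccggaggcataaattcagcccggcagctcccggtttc
Atf3, chr1:191183334-191183433 (-): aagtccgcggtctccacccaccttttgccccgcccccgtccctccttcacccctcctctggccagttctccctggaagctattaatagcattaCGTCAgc
Jun, chr4:95052223-95052322 (-): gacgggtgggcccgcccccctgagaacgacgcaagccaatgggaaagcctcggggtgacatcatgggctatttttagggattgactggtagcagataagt

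TGACG lay at -66 to -62 in *Fos* and at -60 to -56 in *Fosb*, counted back from the start, and on the other strand at -7 to -3 in *Atf3*. *Fosb* also held GCGNGGGCG, at -50 to -42, as did *Fosl2*, at -79 to -71, which was not called. *Fos* held TATAAA, at -33 to -28. In the same window of all 32851 RefSeq promoters, 10.5% held TGACG, 3.02% held GCGNGGGCG and 5.56% held TATAAA. The full element TGACGTCA (1.15% of promoters) and the AP-1 site TGANTCA (2.73%) were not in these 4 windows, and *Jun* held none of the letters searched. Near matches were not searched or counted. In the *Jun* window, tgacatca differs from TGACGTCA at a single base. The annotated *Atf3* and *Fosl2* genes extend upstream of the starts used here, so that the *Fosl2* window lies within the annotated gene. *Fosb* extends upstream by a few bases.

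*Fosl1* (chr19:5447547-5455946, plus strand) and *Fosl2* (chr5:32135801-32157842, plus strand) encode the Fos-related proteins FRA-1 and FRA-2, which lack the strong activation domain of c-Fos. *Fosl2* stood at 21.6 TPM in WT 1, 27.2 in WT 2, 31.4 in cKO 1 and 24.3 in cKO 2, and the groups overlapped (log2 fold change 0.20, SE 0.25, and between 0.0076 and 0.36 with 1 library left out). *Fosl1* stood at 6.33 TPM in WT 1, 3.07 in WT 2, 6.86 in cKO 1 and 9.82 in cKO 2. Its groups did not overlap, yet its log2 fold change of 0.83 (SE 0.56) missed the unadjusted p of 0.05, and it lay at 0.39 without WT 2 and 1.44 without WT 1. The exons of *Fosl1* overlap those of *Ccdc85b* on the other strand by 1163 bases, and 58.9% of the 50-base words of its longest transcript occur in *Ccdc85b*. *Ccdc85b* itself had a log2 fold change of 0.60 (SE 0.25, unadjusted p = 0.055 in edgeR). The strand setting of the counting is not given in the sources used here, so the *Fosl1* level is uncertain.

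Within the Fos family, *Fos* made up 95.1% of the summed TPM in WT 1, 92.0% in WT 2, 82.7% in cKO 1 and 90.5% in cKO 2. *Fosb* made up nearly all of the rest, at 4.16%, 7.32%, 16.3% and 8.75% in the same order. Both cKO shares of *Fosb* lay above both WT shares, with means of 5.74% ± 2.23 in WT and 12.5% ± 5.37 in the cKO-labelled libraries (SD, n = 2). The exact two-sided permutation test gave p = 0.333 (n = 2 per group), which is the smallest that 2 libraries against 2 can give. The ratio of *Fos* to *Fosb* TPM was 22.9 and 12.6 in WT 1 and WT 2 and 5.06 and 10.3 in cKO 1 and cKO 2, so cKO 2 lay nearer to WT 2 than to cKO 1. The summed Fos family stood at 4059 ± 425 TPM in WT and 4364 ± 248 in the cKO-labelled libraries (SD, n = 2; exact permutation p = 0.667), with overlapping groups. In CPM, which is not scaled to gene length, the sum was 3788 and 4378 in WT and 4609 and 4680 in the cKO-labelled libraries, where the groups did not overlap (exact permutation p = 0.333, n = 2 per group).

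**Figure D2:**
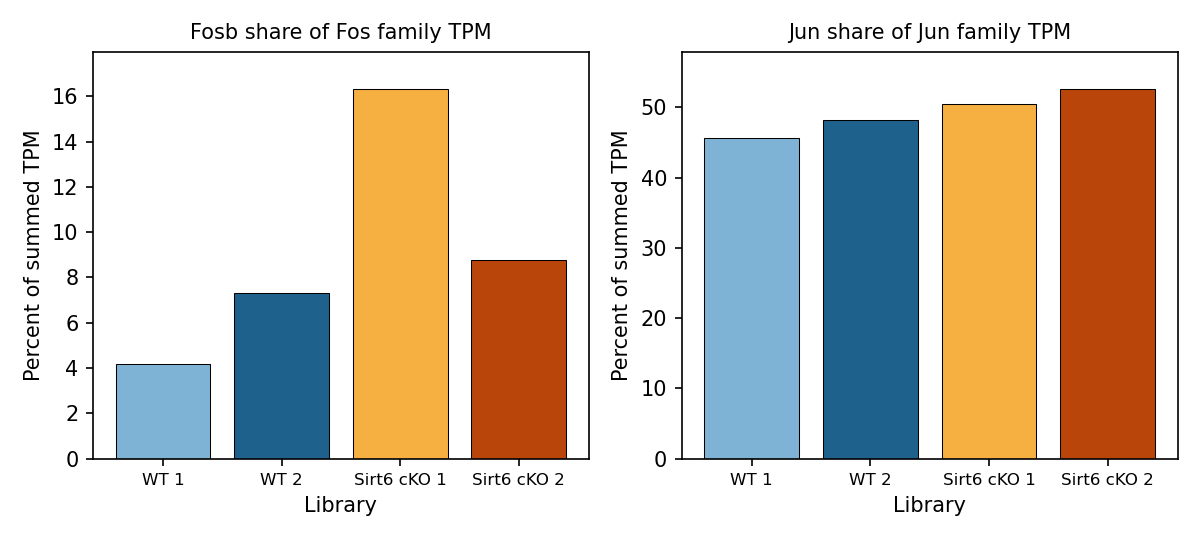
Share of *Fosb* in the summed TPM of the 4 Fos genes (left) and of *Jun* in that of the 3 Jun genes (right), in percent, 1 bar per library. *Fosb* lies at 4.16% and 7.32% in WT and at 16.3% and 8.75% in the cKO-labelled libraries, and *Jun* passes *Junb* only in the latter, at 50.5% and 52.7%.

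*Jun* (chr4:95049034-95052222, minus strand) encodes c-Jun, the strongest activator among the Jun proteins. It stood at 1541 TPM in WT 1, 1874 in WT 2, 2095 in cKO 1 and 2308 in cKO 2, without overlap of the groups. Its mean was 2471 ± 292 CPM in WT and 3209 ± 205 CPM in the cKO-labelled libraries (SD, n = 2). In edgeR the log2 difference was 0.38 (SE 0.15), with an unadjusted p of 0.045 and an adjusted p of 0.57. *Jun* lay nearest the threshold of the 4 genes. It passed the unadjusted p in 4 of 12 alternatives, DESeq2 gave an unadjusted p of 0.089, and the log2 fold change was 0.24 without WT 1. The antisense gene *Junos* overlaps 232 bases of *Jun* exons and is not listed in the count table.

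*Junb* (chr8:84974484-84978718, minus strand), whose protein can counter c-Jun, stood at 1836 TPM in WT 1, 2015 in WT 2, 2050 in cKO 1 and 2072 in cKO 2. The groups were separate by a narrow margin, with a log2 fold change of 0.11 (SE 0.13) that did not pass the unadjusted p. *Junb* exons overlap those of *Prdx2* on the other strand by 173 bases. *Jun* made up 45.6% and 48.2% of the Jun family's TPM in WT and 50.5% and 52.7% in the cKO-labelled libraries (exact permutation p = 0.333, n = 2 per group, the smallest possible). The family sum was 3635 ± 362 TPM in WT and 4263 ± 166 in the cKO-labelled libraries (SD, n = 2), with no overlap and the same smallest exact p = 0.333.

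*Jund* (chr8:70698949-70700616, plus strand), known as the constitutively expressed and growth-restraining Jun gene, was listed at very low levels. WT 1 held 208 counts of it, WT 2 held 191, and there were 77 in cKO 1 and 71 in cKO 2, or between 0.834 and 2.38 TPM. It was the single member that lay lower in both cKO-labelled libraries, with a log2 fold change of -1.37 (SE 0.71, unadjusted p = 0.11 in edgeR), and did not pass the test. The GC content of its transcript was 67.1%, above 99.8% of the genes tested with an annotated transcript. In addition, 48.3% of its 50-base words occur in the antisense gene *Gm11175*, which is not listed in the count table. The part of base composition and of the antisense gene in the listed level was not tested.

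*Atf3* (chr1:191170296-191218039, minus strand) encodes a stress-induced bZIP factor that represses as a homodimer. It stood at 431 TPM in WT 1, 556 in WT 2, 738 in cKO 1 and 807 in cKO 2, and the groups did not overlap. Its mean was 443 ± 70.6 CPM in WT and 699 ± 41.2 CPM in the cKO-labelled libraries (SD, n = 2). In edgeR the log2 difference was 0.66 (SE 0.18), with an unadjusted p of 0.012 and an adjusted p of 0.54. It had the smallest unadjusted p of the members and passed that threshold in 10 of 12 alternatives. Without WT 1 the log2 fold change was 0.48 and did not pass.

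*Egr1* (chr18:34859823-34864984, plus strand), a zinc finger factor outside AP-1 that shares its signals, stood at 1481 TPM in WT 1, 1802 in WT 2, 2145 in cKO 1 and 2410 in cKO 2. The groups did not overlap, and the mean was 2289 ± 271 CPM in WT and 3200 ± 248 CPM in the cKO-labelled libraries (SD, n = 2). The log2 fold change was 0.48 (SE 0.15, unadjusted p = 0.020 and adjusted p = 0.54 in edgeR) and lay at 0.34 without WT 1, where it did not pass. *Ier2* (chr8:84661331-84662852, minus strand), a small immediate early gene without a bZIP domain, stood at 1771 TPM in WT 1, 1857 in WT 2, 1747 in cKO 1 and 2013 in cKO 2. Its groups overlapped, and its log2 fold change was 0.061 (SE 0.14), against -0.018 by upper quartile scaling.

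**Figure D3:**
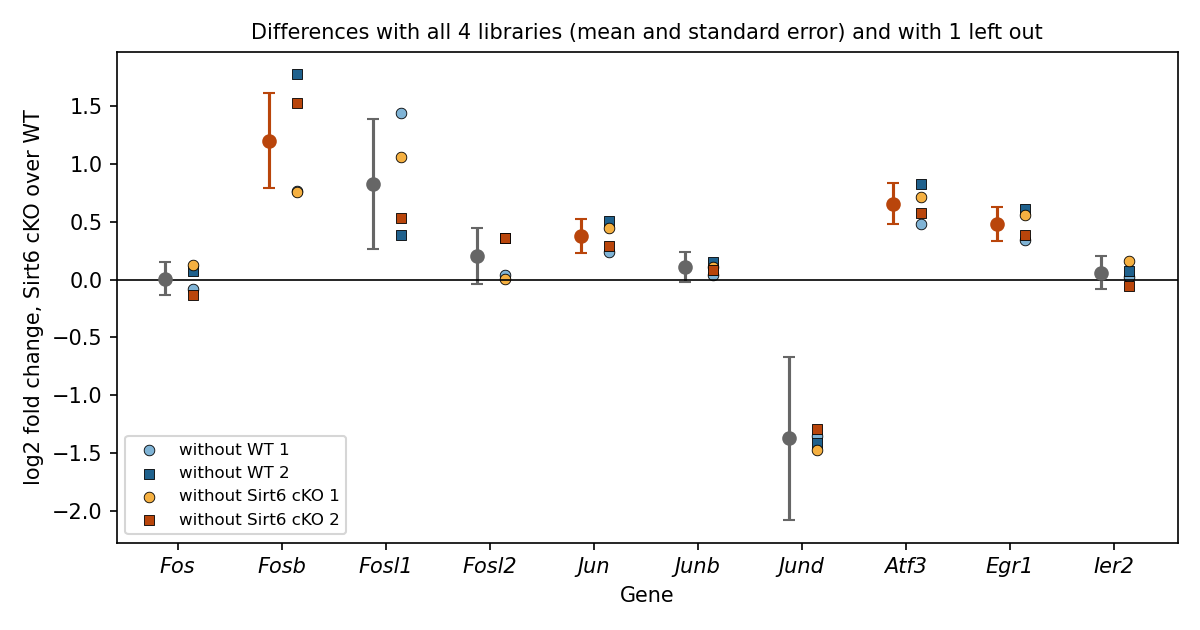
Log2 fold change of the cKO-labelled libraries over WT for each gene, as the large point with its SE from all 4 libraries (orange where the unadjusted p is under 0.05) and as small points with 1 library left out. Leaving out WT 1 moves *Fosb* from 1.20 to 0.77 and *Jun* from 0.38 to 0.24, and *Jund* stays below 0 in each case.

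The libraries were ordered alike for several members. WT 1 held the lowest TPM of 6 of the 10 members and cKO 2 the highest of 7. In 4 members (*Jun*, *Junb*, *Atf3* and *Egr1*) the TPM had the same order, with WT 1 lowest, then WT 2, cKO 1 and cKO 2, whereas *Fosb* was highest in cKO 1. By CPM the groups were separate in 7 of the 10 members, with 6 higher and 1 lower in the cKO-labelled libraries, while 21.6% of all genes tested were separate and higher and 20.3% separate and lower. The balance of calls over all genes depended on the scaling: 977 genes were higher and 615 lower at the unadjusted p, against 751 (4.05%) and 800 with upper quartile normalization and 721 (3.89%) and 838 with library size alone. *Fosb* and *Atf3* passed the unadjusted p under both of these scalings, *Egr1* with library size alone, and *Jun* under neither.

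The wider immediate early group was followed with a list of 34 other genes, all of which were tested. Of these 7 were higher and 0 lower at the unadjusted p, with a median log2 fold change of 0.11. The background for this and each later list was 5.27% higher and 3.32% lower over the 18547 genes tested. Among genes with a mean TPM of 100 or more, 9.15% were higher. *Dusp4*, a phosphatase that inactivates MAP kinases, stood at 178 and 234 TPM in WT and at 457 and 382 TPM in the cKO-labelled libraries (log2 fold change 1.04, SE 0.20). *Csrnp1*, a nuclear factor induced by AXIN1, stood at 273 and 307 TPM in WT and at 518 and 459 TPM (0.76, SE 0.16). Both passed the unadjusted p in all 12 alternatives. Their adjusted p was 0.54 in edgeR and lowest in DESeq2, at 0.0067 and 0.030.

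*Arc*, a synaptic immediate early gene, had 155 and 152 TPM in WT and 236 and 231 TPM in the cKO-labelled libraries (log2 fold change 0.61, SE 0.15). *Zfp36*, whose protein binds AU-rich mRNAs and speeds their decay, had 1574 and 1774 TPM in WT and 2387 and 2360 TPM (0.51, SE 0.13), and did not pass without WT 1. *Gem* (0.63, SE 0.20), *Trib1* (0.60, SE 0.23) and *Ptgs2* (0.57, SE 0.20), which encodes cyclooxygenase 2, were also higher, and passed in 10, 7 and 8 of 12 alternatives. *Trib1* lay at 0.37 without cKO 1 and *Ptgs2* at 0.34 without WT 1. The other 27 genes of the list did not pass, among them *Dusp1* (log2 fold change -0.02), *Btg2* (-0.08), *Nr4a1* (-0.11), *Klf6* (0.21) and *Myc* (0.12), between 156 and 1341 TPM in all libraries and chosen here after their values were seen. The count was 4 without WT 1, and without cKO 2 it was 6 with 3 genes lower.

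Among 25 other bZIP factors 5 were higher and 0 lower, with a median log2 fold change of 0.39. *Atf4*, the effector of the integrated stress response, stood at 299 and 319 TPM in WT and at 624 and 417 TPM in the cKO-labelled libraries (log2 fold change 0.76, SE 0.23, and 0.44 without cKO 1). *Nfe2l1* (1.13, SE 0.44), *Bach1* (1.19, SE 0.41) and *Creb5* (2.22, SE 0.81) were also higher at the unadjusted p, and *Creb5* was low, at 0.386 to 2.24 TPM. *Bach1* lay at 0.60 without cKO 1. *Nfe2l1* lay at 0.64 without WT 1 and 1.84 without WT 2, and passed in 7 of 12 alternatives. For *Atf4* and *Bach1*, the value without cKO 1 was the lowest with 1 library left out. Scaling by upper quartile or by library size alone left 3 of the 25 factors higher at the unadjusted p.

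The MAP kinase and serum response factor genes that act upstream were followed with a list of 26. Of these 0 were higher and 1 was lower, with a median log2 fold change of 0.02. The lower gene was *Mapk13*, a p38 kinase, with 108 and 142 TPM in WT and 58.1 and 83.2 TPM in the cKO-labelled libraries (log2 fold change -0.81, SE 0.28), and it did not pass without WT 2 or without cKO 1. DESeq2 called 2 genes of the list higher at the unadjusted p, and 1 gene was higher without WT 2, without cKO 1 or without cKO 2.

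Of 26 genes known as AP-1 targets in other cells, 4 were higher and 1 was lower, with a median log2 fold change of 0.15. *Hmox1*, heme oxygenase, stood at 215 and 222 TPM in WT and at 411 and 412 TPM in the cKO-labelled libraries (log2 fold change 0.92, SE 0.16), with replicates that nearly coincided. It passed the unadjusted p in all 12 alternatives and lay between 0.89 and 0.93 with 1 library left out, and its adjusted p was 0.54 in edgeR and 0.0016 in DESeq2. *Vim* (0.76, SE 0.25) and *Cxcl1* (0.43, SE 0.15) were also higher, and passed in 10 and 6 of 12 alternatives. *Spp1*, which encodes osteopontin, was lower (-0.68, SE 0.26) and lay at -0.42 without WT 1. The count of higher genes was 1 without cKO 1 and 2 without cKO 2.

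Heat shock genes, which are induced along with immediate early genes when tissue is digested, were followed beside the members. Of 14 genes 2 were higher and 0 lower at the unadjusted p, with a median log2 fold change of 0.24. The value was above 0 in 13 of 14, against 9204 of the 18547 genes tested. This count holds for the TMM scaling, and *Hspa5*, *Hspd1* and *Hsph1* lay close to 0, at 0.021, 0.027 and 0.046. The median over all genes was -0.0047 with TMM and -0.093 with library size alone. The signs under the latter scaling were not counted. *Hspa1a*, the inducible HSP70, stood at 515 and 370 TPM in WT and at 723 and 743 TPM in the cKO-labelled libraries (log2 fold change 0.73, SE 0.21). *Bag3*, a cochaperone of HSP70, stood at 28.3 and 28.4 TPM in WT and at 42.2 and 48.5 TPM (0.69, SE 0.23). *Hspa1a* lay at 0.50 without WT 2, and the count of higher genes was 1 without WT 2 and without cKO 2. *Bag3* did not pass without any of the 4 libraries in turn. The summed heat shock list stood at 8816 TPM in WT 1, 7716 in WT 2, 9157 in cKO 1 and 9488 in cKO 2. Both cKO-labelled libraries were above both WT libraries, as for the 10 members together. The order within WT differed, since the 10 members summed to 10821 TPM in WT 1 and 12466 in WT 2. The part of cell isolation in these differences was not tested.

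**Figure D4:**
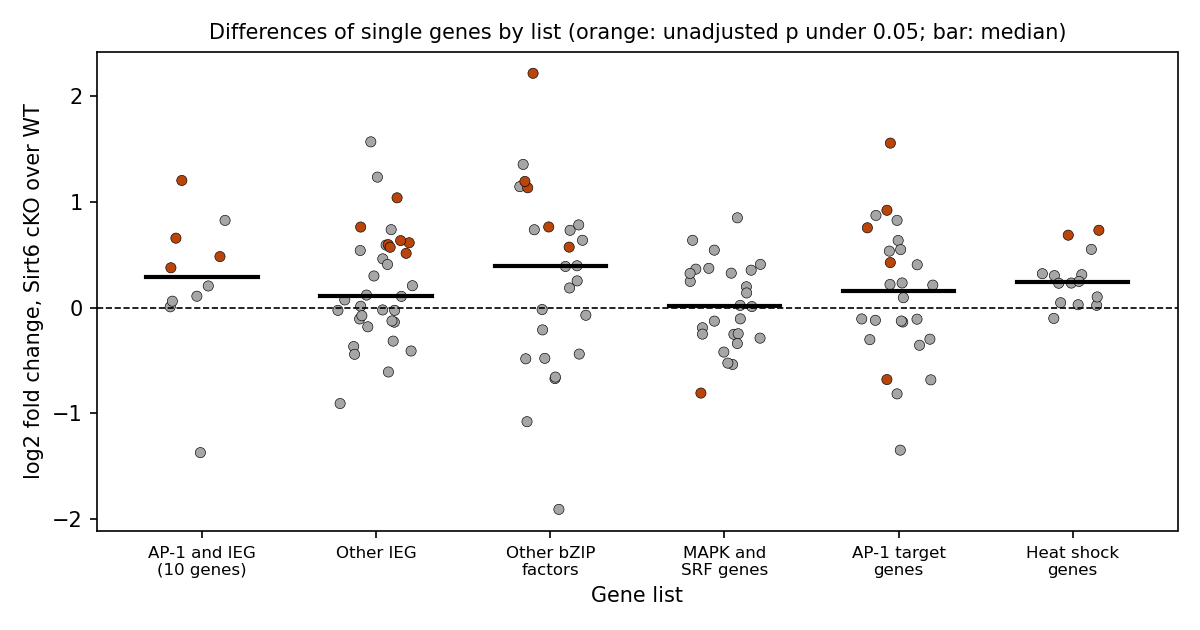
Log2 fold change of the cKO-labelled libraries over WT for the single genes of 6 lists (IEG, immediate early genes), with orange points at an unadjusted p under 0.05, a bar at each list's median and a dashed line at the median of all genes tested. The medians run from 0.02 for the MAP kinase and serum response factor genes to 0.39 for the other bZIP factors.

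Markers of other cells moved beside the members. The 7 myeloid markers summed to 9742 TPM in WT 1 and 6079 in WT 2 and to 3758 and 4051 TPM in the cKO-labelled libraries, most of it *Lyz2*. The 7 tuft cell markers that were listed summed to 204 and 243 TPM in WT and to 134 and 120 TPM. Of the 7, 4 (*Trpm5*, *Avil*, *Gnat3* and *Alox5*) were lower at the unadjusted p. *Pou2f3* (log2 fold change 0.24, SE 0.24) and *Dclk1* (0.36, SE 0.34) lay above 0 and did not pass. The mTEC markers summed to 19718 and 19410 TPM in WT and to 21844 and 21686 TPM, most of it *H2-Aa*, which overlapped between the groups (log2 fold change 0.09, SE 0.12). The thymocyte markers (679 to 1247 TPM), B cell markers (162 to 244 TPM) and fibroblast and endothelial markers (102 to 129 TPM) had 0 genes past the unadjusted p in edgeR. Of the 6 cTEC markers 1 (*Ly75*) was higher at the unadjusted p, and they summed to between 616 and 937 TPM. The log2 fold changes of 4 of the 6 were below 0, with a median of -0.18. No marker was at 0 counts in all libraries. In such bulk libraries fewer cells of a type and less RNA per cell cannot be told apart, and the part of these populations in the levels of the 10 genes was not tested.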

How the data were processed

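mTECs were measured by RNA-seq in 4 libraries. Per the labels and methods, reads were trimmed (Trim Galore), aligned by the authors to mm10 using HISAT2 2.1.0, and genes were quantified by StringTie 1.3.3, while the annotation and strand setting are not given in the sources used here. The deposited table held raw whole-number counts for 23337 symbols. The deposited TPM values were used after leaving out a nameless last line that held the column total. Counts were tested with edgeR 4.0.16 in R 4.3.3 (TMM, filterByExpr with a minimum count of 10 and a total of 15, glmQLFit, glmQLFTest), which left 18547 genes, with Benjamini-Hochberg adjustment at 0.05 over all of them. Standard errors were derived from the F statistic. CPM used the TMM factors. The members and lists were chosen with earlier results of these data known. The 10 members are all named, and from each other list up to 4 genes per direction with the smallest unadjusted p among those passing 0.05. Some genes that enter the list counts are not reported here singly. Other list and marker genes are named to complete a count, after their values were seen. Gene positions, overlapping exons and shared words were taken from the GENCODE M21 annotation (GRCm38, which is mm10). Alternatives were DESeq2 1.42.0, other scalings and filters, a replicate block, limma 3.58.1 on log2(TPM + 1) and log2(TPM + 0.1), and each library left out. With a library left out, the lone library of its group was assumed to vary like the other group. The edgeR procedure was tested on simulated counts that varied less between libraries than these data. That test therefore does not show how the procedure performs at the spread of these libraries.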

Additional observations from a re-analysis of the deposited data

How the results depend on the processing

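Upper quartile normalization left 2 members higher at the unadjusted p, against 3 or 4 in the other alternatives with all 4 libraries, and the count ranged from 0 to 4 with 1 library left out, at 0 without WT 1. The count of members lower at the unadjusted p and the count past an adjusted p stayed at 0 in all 12 alternatives. The median log2 fold change of the members ranged from 0.14 to 0.37 with 1 library left out. Over the 5 other lists together, 18 genes were higher and 2 lower; these ranged from 9 to 16 and from 0 to 9 with 1 library left out, and 9 genes were lower without cKO 2. The replicate block gave 3 members higher, and 13 genes higher and 1 lower in the other lists; the numbers did not pair the samples (correlation of deviations -0.054 over 18547 genes), and *Fosb* was the member past the threshold no more (edgeR log2 fold change 1.23, unadjusted p = 0.059). *Fos*, with no detectable difference, turned to -0.0056 with DESeq2, -0.071 with upper quartile normalization, -0.081 with library size alone, -0.0048 in both limma fits, and -0.13 to 0.12 with 1 library left out. *Ier2* turned to -0.018 with upper quartile normalization, -0.028 with library size alone, and -0.056 to 0.16 with 1 library left out. The cause of these changes was not tested. *Jund* and *Fosl1* had under 500 counts in each library, and the other members 3820 or more.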
